A study of Mus musculus with 24 samples.

Results

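The nuclear genes for subunits of the oxidative phosphorylation machinery were followed through 8 lists of H3K27ac peaks from mouse quadriceps myofibers. Members were taken by symbol from the curated RefSeq protein-coding genes on autosomes: the complex I names Ndufa, Ndufb, Ndufc, Ndufs and Ndufv, the complex II genes Sdha to Sdhd, the complex III names Uqcr, the complex IV names Cox4i to Cox8, and the complex V names Atp5. Assembly factors named Ndufaf or Sdhaf were left out. This gave 84 of 20021 genes, of which 38 belong to complex I, 4 to complex II, 8 to complex III, 17 to complex IV and 17 to complex V. The X-linked genes Cox7b, Ndufa1 and Ndufb11 fall outside the rule. A gene was scored as marked in a list when a peak reached within 1 kb of any of its curated transcription starts, and such a peak is called its promoter peak.

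The study asked how chromatin in skeletal muscle differs between vehicle and weekly prednisone, and for how long, in each sex. Male and female C57BL/6 (C57BL/6J) mice, 10 weeks old at onset, received 5 weekly intraperitoneal injections of prednisone at 1 mg/kg over 4 weeks with vehicle on the days between, or vehicle alone (DMSO in PBS), and the prednisone groups were harvested 4, 6 or 8 days after the last injection. Each of the 8 groups (vehicle, day 4, day 6 and day 8 in each sex) had 2 H3K27ac libraries and 1 input library, from myofibers freed with collagenase II and passed over a filter, which does not remove every other cell of the muscle. Each group is represented by 1 peak list, so the differences between groups have no replicate error and no test.

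Oxidative phosphorylation is carried out by 5 complexes of the inner mitochondrial membrane. Complexes I and II take electrons from NADH and succinate, complex III passes them to cytochrome c, complex IV hands them to oxygen, and complex V, the ATP synthase, uses the resulting proton gradient to make ATP. A few core subunits are encoded by mitochondrial DNA and the others, the genes described here, by the nucleus. In heart and skeletal muscle some complex IV subunits exist as muscle isoforms (Cox6a2, Cox7a1, Cox8b) beside widely expressed partners (Cox6a1, Cox7a2, Cox8a). H3K27ac, acetylation of lysine 27 of histone H3, marks active promoters and enhancers.

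Promoter windows from RefSeq (GRCm38.p6, 250 bases before to 50 after a start) matched 67 of the 84 members. Stretches of the bases before the start are shown for muscle isoforms and their partners and for some of the members of complexes III and V with high median percentiles whose stretch holds a searched motif, because the isoform comparison and the accounts of these complexes refer to them. Printed stretches stop at the first annotated exon. Each is read 5′ to 3′ in the direction of the gene and ends at the base before the start, and capitals mark matches to the searched motifs on either strand. The motifs, spelled out with their shares after the sequences, are short core letters of the sites of NRF1, the ETS family, ERR, YY1, SP1 and the glucocorticoid receptor, and the TATA box.
Cox7a1 (chr7:30184021-30184170, plus strand): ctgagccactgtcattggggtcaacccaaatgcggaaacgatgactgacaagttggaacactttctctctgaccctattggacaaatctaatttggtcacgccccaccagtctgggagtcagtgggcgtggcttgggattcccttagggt
Cox8b (chr7:140900447-140900596, minus strand): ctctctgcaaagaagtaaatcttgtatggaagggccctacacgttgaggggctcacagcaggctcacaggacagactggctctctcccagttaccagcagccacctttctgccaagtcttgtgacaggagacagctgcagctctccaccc
Cox6a1 (chr5:115348959-115349108, minus strand): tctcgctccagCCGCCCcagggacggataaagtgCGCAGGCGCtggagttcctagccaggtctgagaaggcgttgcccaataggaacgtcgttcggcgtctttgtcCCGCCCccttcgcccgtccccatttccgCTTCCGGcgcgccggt
Cox8a (chr19:7217617-7217766, minus strand): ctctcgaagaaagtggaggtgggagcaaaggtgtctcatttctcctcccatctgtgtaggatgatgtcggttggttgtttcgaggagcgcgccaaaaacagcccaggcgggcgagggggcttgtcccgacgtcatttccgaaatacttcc
Uqcrh (chr4:116075071-116075220, minus strand): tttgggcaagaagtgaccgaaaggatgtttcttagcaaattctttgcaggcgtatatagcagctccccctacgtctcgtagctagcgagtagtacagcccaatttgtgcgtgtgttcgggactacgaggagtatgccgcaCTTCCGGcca
Uqcr11 (chr10:80406822-80406971, minus strand): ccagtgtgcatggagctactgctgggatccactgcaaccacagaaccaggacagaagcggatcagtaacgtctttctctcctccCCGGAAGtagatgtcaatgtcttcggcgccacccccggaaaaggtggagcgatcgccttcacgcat
Atp5g2 (chr15:102671048-102671197, minus strand): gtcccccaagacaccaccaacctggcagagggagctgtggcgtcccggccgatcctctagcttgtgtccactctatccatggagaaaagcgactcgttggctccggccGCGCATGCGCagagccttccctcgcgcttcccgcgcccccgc
Atp5md (chr19:47090648-47090734, minus strand): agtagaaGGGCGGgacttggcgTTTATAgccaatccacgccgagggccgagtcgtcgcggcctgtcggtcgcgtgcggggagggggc
The muscle isoforms Cox7a1 and Cox8b held 4 and 1 CpG dinucleotides in these 150 bases and no motif match, whereas Cox6a1 held 18 and Cox8a, also with no match in the stretch, held 10. Cox6a1, the widely expressed partner of Cox6a2, had an NRF1 match 116 to 108 bases before the start, an ETS match 16 to 10 bases before it and 2 SP1 matches. The ETS match of Uqcrh lay 10 to 4 bases before the start. Uqcr11 had an ETS match 66 to 60 bases before the start. The NRF1 letters of Atp5g2 matched on both strands, in overlapping positions 42 to 33 bases before the start. In Atp5md the stretch of 87 bases held an SP1 match and a TATA box match on the opposite strand.

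Over the whole windows, 24 of 67 members (35.8%) held the NRF1 letters GCGCNTGCG, where N is any base, against 10.2% of 15996 genes with a window and 19.9% of the 2864 of these that had a promoter peak in all 8 lists. NRF1 is a transcription factor known for its binding to promoters of respiratory chain genes. The ETS letters CCGGAAG, the core of sites for GABP and its relatives, were found in 25.4% of members, 13.5% of genes and 23.3% of genes with a peak in all 8 lists. The ERR letters AAGGTCA, bound by the estrogen-related receptors, were in 11.9% of members, 4.58% of genes and 4.22% of genes with a peak in all 8 lists. The YY1 letters GATGGCG were in 14.9%, 5.12% and 8.73%, but with only the bases before the start searched the members' share was 2.99% and that of genes 2.96%. The TATA box letters TATAAA were in 11.9%, 14.7% and 7.89%. The SP1 letters GGGCGG were in 41.8% of members (95% exact binomial interval 29.8 to 54.5), 51.2% of genes and 74.1% of genes with a peak in all 8 lists. The glucocorticoid receptor letters ACANNNTGT were in 0 of 67 members (95% exact binomial interval 0 to 5.36%). They were in 6.86% of genes and in 3.88% of genes with a peak in all 8 lists, which lies inside that interval. The median ratio of observed to expected CpG was 0.823 in members, 0.641 in genes and 0.854 in genes with a peak in all 8 lists, and the lowest ratios of the 67 members were those of Cox8b (0.115) and Cox7a1 (0.333). These matches describe letters in a window and not binding, and 17 members had no window, among them Atp5a1, Atp5mpl, Cox4i1, Cox4i2, Cox6a2, Cox6c, Cox8c, Ndufa2, Ndufa4l2, Ndufb4c, Ndufb9, Ndufs1, Sdhc, Uqcrb, Uqcrc2 and Uqcrq.

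The lists rest on unequal numbers of tags, which limits every comparison between them. H3K27ac depth, in M (mega) tags, ranged from 7.52 M tags in the male day 4 list to 50.5 M tags in the male day 6 list, and the input libraries ranged between 13.4 and 34.8 M tags. The lists hold between 17482 peaks (male day 4) and 123249 peaks (female day 6), and the share of H3K27ac tags that fell in peaks ranged from 5.39% (male day 6) to 47.3% (female day 6). A member without a promoter peak was therefore not detected at the depth and enrichment of that list, which is not the same as unmarked. How the 2 H3K27ac libraries of a group entered its list is not given in the sources used here, so whether both are in the male day 4 list is not known. Of 14 myofiber marker genes, 7 to 13 had a promoter peak in a list, so markers of the labelled cells were present in every list.

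In each list most members carried a promoter peak, a larger share than of genes in general. In females 61 of 84 members (72.6%) were marked in vehicle, 79 (94.0%) on day 4 and 81 (96.4%) on each of days 6 and 8. The shares of all genes marked in the same lists were 30.2%, 55.3%, 71.1% and 63.7%. In males 80 members (95.2%) were marked in vehicle, 51 (60.7%) on day 4 and 70 (83.3%) on each of days 6 and 8, and the shares of all genes were 56.5%, 32.9%, 32.9% and 36.6%. The members' share was thus above that of all genes in each of the 8 lists. It also remained above it in all 56 combinations of a list with another promoter window, fold threshold, list length or choice of start.

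**Figure D1:**
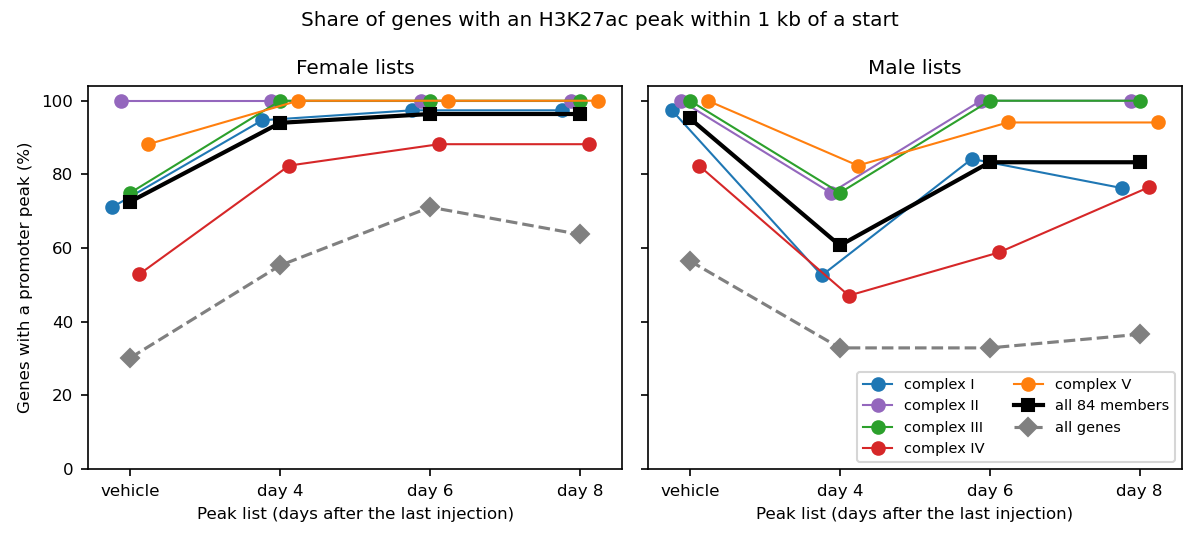
Share of genes (%, y axis) with an H3K27ac peak within 1 kb of a start in each peak list (x axis), females left and males right. Colored points are the 5 complexes, set slightly apart along the x axis, black squares all 84 members and gray diamonds all genes. The members lie between 60.7% and 96.4% and above all genes (30.2% to 71.1%) in every list, and complex IV is the lowest of the complexes in 7 of the lists and just above complex I (76.5% against 76.3%) in the male day 8 list. Complex IV includes Cox4i2, Cox6b2, Cox7b2 and Cox8c, each marked in 4 lists or fewer.

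Promoter peaks were present in all 8 lists for 39 members (46.4%), against 17.3% of all genes. They were Atp5a1, Atp5b, Atp5c1, Atp5d, Atp5e, Atp5g1, Atp5g2, Atp5h, Atp5j, Atp5j2, Atp5l, Atp5md, Atp5o and Atp5pb of complex V; Cox5a, Cox7c and Cox8a of complex IV; Uqcr11, Uqcrb, Uqcrfs1, Uqcrh and Uqcrq of complex III; Sdha, Sdhb and Sdhc of complex II; and 14 genes of complex I, among them Ndufa6, Ndufa11, Ndufb1, Ndufb2, Ndufb7, Ndufb8, Ndufb9, Ndufb10, Ndufc1, Ndufs1 and Ndufv3. A further 23 members were marked in 7 lists, and for 12 of these the missing list was male day 4, which has the fewest tags. Promoter peaks were present in none of the lists for 3 members, Cox7b2, Cox8c and Ndufb4c, against 23.2% of all genes. With every list reduced to the 17482 peaks of the shortest list by findPeaks score, only 1 member stayed in all 8 lists (1.19%, against 2.62% of genes).

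**Figure D2:**
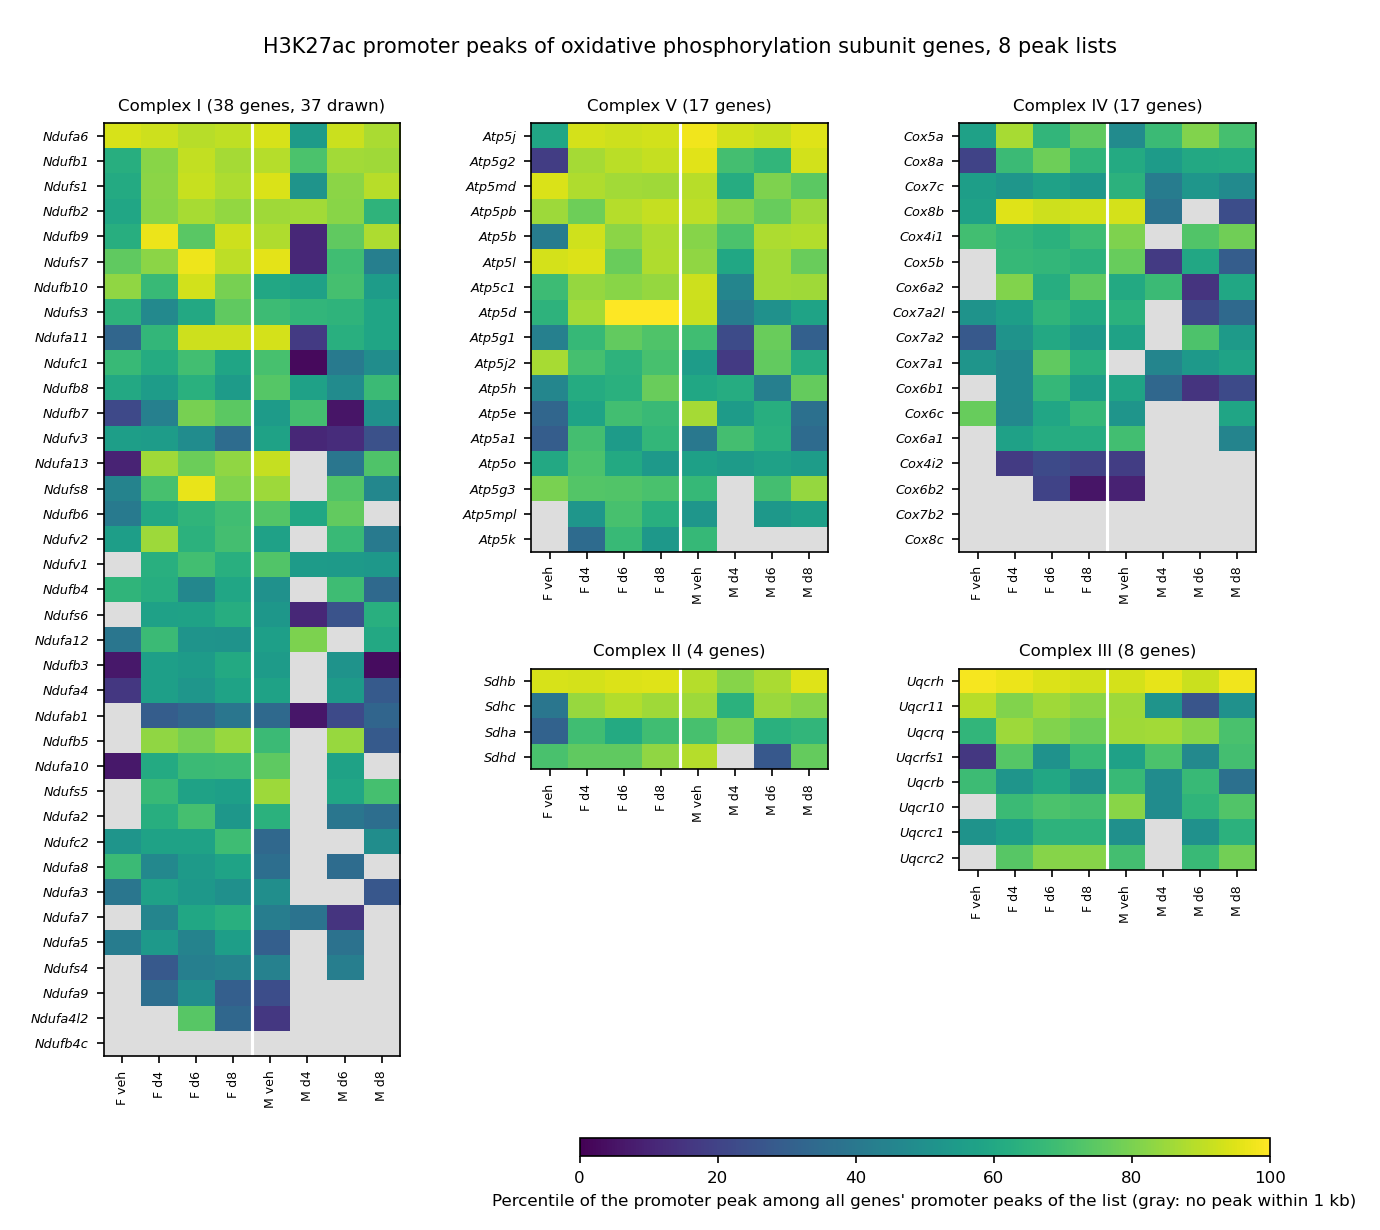
Each row is a member gene and each column a peak list (F female, M male, veh vehicle, d days after the last injection), grouped by complex and ordered by the number of lists with a promoter peak. Color gives the percentile of the member's promoter peak by normalized tag count among the promoter peaks of all genes in the same list, and gray marks no peak within 1 kb; Cox7b2, Cox8c and Ndufb4c are gray throughout, 1 complex I gene is not drawn, and Uqcrh and Sdhb stay above the 80th percentile in every list.

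Among genes with a promoter peak, those of members were also above the middle of their list. Ranked by normalized tags (tags in the peak per 10 M tags of the library), the median percentile of members ran from 54.8 in the male day 4 list to 69.1 in the female day 8 list. The median normalized tags of members in the female lists, in order of time, were 20.0, 42.9, 158 and 98.7, where that of all marked genes was 17.4, 29.8, 97.3 and 63.0. In males it was 45.4, 26.6, 25.9 and 21.6, where that of all marked genes was 30.7, 23.9, 19.6 and 18.1. The rank depends on what is ranked: by fold over input the members' median percentile was 48.3 in female vehicle, 45.0 in male day 4 and 37.1 in male day 6, below the middle of those lists, and by findPeaks score 46.2, 39.3 and 47.2.

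Most of the peaks covered the start, and by their median extent they reached further into the gene than upstream in each list. The start itself was covered for all marked members at female days 4 and 6, for 98.8% at female day 8 and in male vehicle, and for 65.6% in female vehicle, and 78.4%, 81.4% and 85.7% in the male lists of days 4, 6 and 8. Among all marked genes the covered share was 50.8% in female vehicle, up to 89.4% in the later female lists, and 62.4% to 72.8% in the male lists. In female vehicle the highest coverage, 82.0% of promoter peaks, was 200 bp inside the gene, and coverage 500 bp inside was 68.9% against 36.1% at 500 bp upstream. In the male day 8 list the same distances had 85.7% inside and 37.1% upstream. These lists had the widest gaps, and female day 8 had the narrowest, with 97.5% inside and 86.4% upstream. Of the 39 members marked in all lists, 33 had a stretch covered in every list, with a median length of 600 bp, and in 19 of these it held the start. Among the longest was that of Uqcrh (1912 bp, chr4:116074569-116076481).

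**Figure D3:**
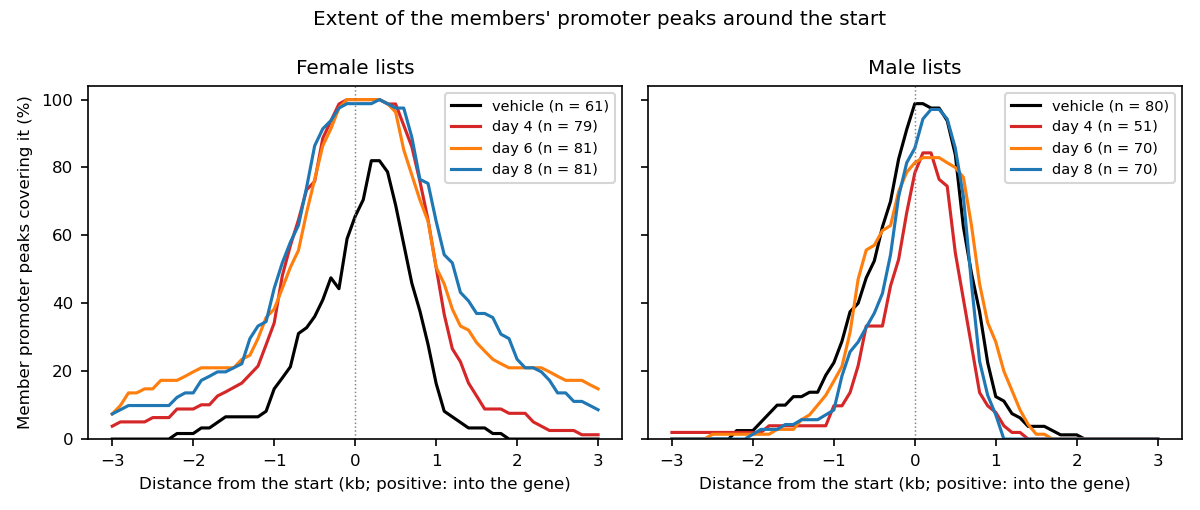
Share of the members' promoter peaks (%, y axis) that cover each distance from the start (kb, x axis, positive into the gene), one line per list, females left and males right, with the number of marked members in the legend. Female vehicle peaks at 82.0% and 200 bp inside the gene, while the lines of female days 4, 6 and 8 reach 100%.

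Neighboring genes share many of these peaks. A protein-coding gene in the opposite direction starts within 1 kb upstream of 26 members (31.0%, against 9.00% of all genes), as in the pairs Atp5j and Gabpa, Sdhd and Timm8b, Ndufs1 and Eef1b2 and Ndufb5 and Mrpl47. Of these 26 members 15 (57.7%) were marked in all 8 lists, and of the other 58 members 24 (41.4%). Among all genes the shares were 38.1% with such a neighbor and 15.2% without. In each list between 32.5% and 39.5% of the members' promoter peaks also lay within 1 kb of another gene's start, against 17.9% to 21.5% for all marked genes, so the tags of those peaks cannot be assigned to 1 gene.

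Complex I, the NADH dehydrogenase, is the largest complex, and its marked members numbered 27 of 38 in female vehicle, 36 at day 4, and 37 at days 6 and 8. In the male lists they numbered 37, 20, 32 and 29. The 7 genes of its catalytic core, such as Ndufs1 and Ndufv1, a grouping by textbook role made after the values were seen, were marked in 5 to 7 of 7 in each list, 4 of them in all lists and 3 in 7 lists. Of the 31 accessory subunits 10 were marked in all lists, 8 in 7 lists and 13 in fewer. Ndufa6 and Ndufb1 were among the most strongly marked complex I members, with median percentiles of 91.2 and 85.9. Ndufa6, an accessory subunit of the matrix arm, held 54.5, 93.7, 328 and 202 normalized tags in the female lists and 98.4, 26.6, 54.0 and 40.5 in the male lists. Ndufb1, a small subunit of the membrane arm, held 22.2, 62.1, 357 and 168 in the female lists and 76.9, 37.2, 43.9 and 38.7 in the male lists. Both genes were highest at female day 6, and in males both were highest in vehicle. At the other end, Ndufa9, an accessory subunit of the matrix arm, had no peak in female vehicle (the nearest lay 1719 bp away) and 21.6, 94.7 and 36.3 normalized tags at female days 4, 6 and 8. In males it held 15.8 normalized tags in vehicle (95% Poisson interval 11.7 to 20.8, which like all such intervals here covers counting error only) and no promoter peak at days 4, 6 or 8. Ndufa4l2, the paralog of Ndufa4 known as a hypoxia-induced gene, was marked only at female day 6 (187 normalized tags in a peak of 7571 bp), female day 8 (40.5) and in male vehicle (13.3). Ndufa4 itself, which is now counted with complex IV, was marked in every list but male day 4 with 9.45, 34.3, 106 and 75.5 normalized tags in the female lists and 36.1, 21.6 and 11.5 in the male vehicle, day 6 and day 8 lists. Per kb of peak Ndufa4 was above Ndufa4l2 in the 3 lists that hold both, by 1.24 to 2.46 times, with separate Poisson intervals at female days 6 and 8.

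All 4 genes of complex II, succinate dehydrogenase, which also works in the tricarboxylic acid cycle, were marked in 7 lists, and Sdhd was the missing gene at male day 4. Sdhb, the iron-sulfur subunit, held 53.8, 100, 498 and 294 normalized tags in the female lists and 77.2, 46.6, 45.3 and 56.7 in the male lists. Its percentile stayed between 81.7 and 95.3, while its tags were lowest in male day 6 and highest in female day 6. Sdha, the flavoprotein that oxidizes succinate, held 12.4, 44.7, 131 and 99.0 in the female lists and 48.1, 43.9, 25.9 and 24.3 in the male lists. The membrane anchors differed from each other: Sdhc held 14.2, 66.6, 314 and 161 in the female lists and 68.3, 31.9, 42.5 and 34.9 in the male lists. Sdhd held 26.9, 51.9, 195 and 148 in the female lists and 77.2, 11.5 and 30.5 in the male vehicle, day 6 and day 8 lists, with its male day 4 value missing for want of a peak within 13113 bp. For Sdha and Sdhb the Poisson intervals of male vehicle and male day 4 were 40.7 to 56.4 against 30.2 to 61.6, and 67.8 to 87.5 against 32.4 to 64.7, so they overlap for Sdha and do not for Sdhb. Scaled to peak length, in tags per kb, Sdha held 40.7 in male vehicle and 70.0 at day 4, the other direction, and Sdhb 42.3 and 29.8.

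Complex III, the cytochrome bc1 complex, had 6 of 8 genes marked in female vehicle and all 8 at female days 4, 6 and 8; in males all 8 were marked in vehicle and at days 6 and 8, and 6 at day 4. Uqcrh, the hinge subunit that helps cytochrome c bind, whose proximal sequence with the ETS match is given above, was the highest of the complex. It held 89.7, 139, 492 and 242 normalized tags in the female lists and 96.1, 85.1, 53.8 and 75.1 in the male lists, at percentiles of 91.9 to 98.7. Its peak reached 1411 to 3455 bp upstream and 501 to 1098 bp into the gene, and Lrrc41 starts 199 bp away in the opposite direction. The next were Uqcr11 and Uqcrq, with median percentiles of 81.8 and 81.7. The core proteins Uqcrc1 and Uqcrc2 were each absent at male day 4, and Uqcrc2 was also absent in female vehicle, where its nearest peak lay 1876 bp away, and held 50.2, 240 and 139 normalized tags at female days 4, 6 and 8. Uqcr10 was the other complex III gene absent in female vehicle and present in the 3 later female lists.

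Complex IV, cytochrome c oxidase, was the least marked complex in every list but male day 8. Marked were 9 of 17 genes in female vehicle (52.9%) and 14, 15 and 15 at female days 4, 6 and 8. In the male lists 14, 8, 10 and 13 were marked. Every unmarked gene at female days 4, 6 and 8 and male day 8 was among Cox4i2, Cox6b2, Cox7b2 and Cox8c. In the other lists further genes were unmarked, such as Cox5b in female vehicle and Cox4i1 at male day 4. Complex IV genes marked in all lists were Cox5a, Cox7c and Cox8a, 3 of 17, against 14 of 17 in complex V. Cox8b and Cox4i1 had the highest median percentiles (92.5 and 69.9), followed by Cox5a (69.4), a subunit on the matrix side. Cox5a held 20.0, 72.9, 148 and 116 normalized tags in the female lists and 29.4, 34.6, 38.0 and 26.8 in the male lists. Its Poisson intervals overlapped one another in the 4 male lists, from 21.4 to 33.1 at day 8 up to 32.8 to 43.8 at day 6.

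The muscle isoforms Cox6a2, Cox7a1 and Cox8b were marked in 7 lists each, and their widely expressed partners Cox6a1, Cox7a2 and Cox8a in 5, 7 and 8. Cox6a2 (chr7:128205435-128206366) had no peak within 30313 bp of its start in female vehicle and held 60.4, 136 and 116 normalized tags at female days 4, 6 and 8. In males it held 38.6, 34.6, 8.11 and 21.8 in vehicle, day 4, day 6 and day 8. Cox6a1 (chr5:115345652-115348958), the partner, was also absent in female vehicle and held 34.9, 134 and 82.9 at the later female days, 47.1 in male vehicle and 16.5 at male day 8, with no peak at male days 4 and 6. Per kb of peak, Cox6a2 was above Cox6a1 with separate Poisson intervals in 3 of the 5 lists that hold both (female days 6 and 8 and male vehicle), and the intervals overlapped in the other 2.

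Cox7a1 (chr7:30184171-30186030) was the only member of the 84 absent in male vehicle and present in all 3 later male lists. It held 18.2, 28.2, 193 and 86.1 normalized tags in the female lists and 22.6, 21.2 and 21.2 at male days 4, 6 and 8. In male vehicle the nearest peak lay 1089 bp from the start, and with a window of 2500 bp the gene was marked there too, so that 0 members were gained in males at any day. Cox7a2 (start at chr9:79759853) held 11.6, 30.8, 130 and 68.5 in the female lists, 36.1, 31.3 and 19.6 in male vehicle, day 6 and day 8, and had no peak at male day 4. Of the 6 lists that hold both, the intervals per kb overlapped in 4, and Cox7a2 was higher at female days 6 and 8. Cox7a2l, a related gene whose product is known for joining complexes III and IV, held 17.8, 34.1, 148 and 81.1 normalized tags in the female lists and 41.1, 9.89 and 13.1 in male vehicle, day 6 and day 8. Per kb of peak the intervals of Cox7a2 and Cox7a2l overlapped in 5 of the 7 lists that hold both, and Cox7a2 was higher at female day 8 and male day 6.

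Cox8b (chr7:140898942-140900446) had the broadest peaks of the 3 muscle isoforms, 6015 to 6310 bp at female days 4, 6 and 8. It held 20.0, 114, 402 and 238 normalized tags in the female lists and 96.1, 20.0 and 10.3 in male vehicle, day 4 and day 8, with no peak within 2092 bp at male day 6. These sums cover peaks of 2663, 500 and 500 bp, and per kb the value in male vehicle, 36.1, lay slightly below that of day 4 and above the 20.6 of day 8. Cox8a (chr19:7215158-7217616) was marked in all 8 lists with 10.2, 43.7, 208 and 90.4 in the female lists and 38.9, 26.6, 24.3 and 22.4 in the male lists. Per kb of peak the Poisson intervals of Cox8b and Cox8a overlapped in 5 of 7 lists, Cox8b being higher at female day 6 and Cox8a at female day 8.

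**Figure D4:**
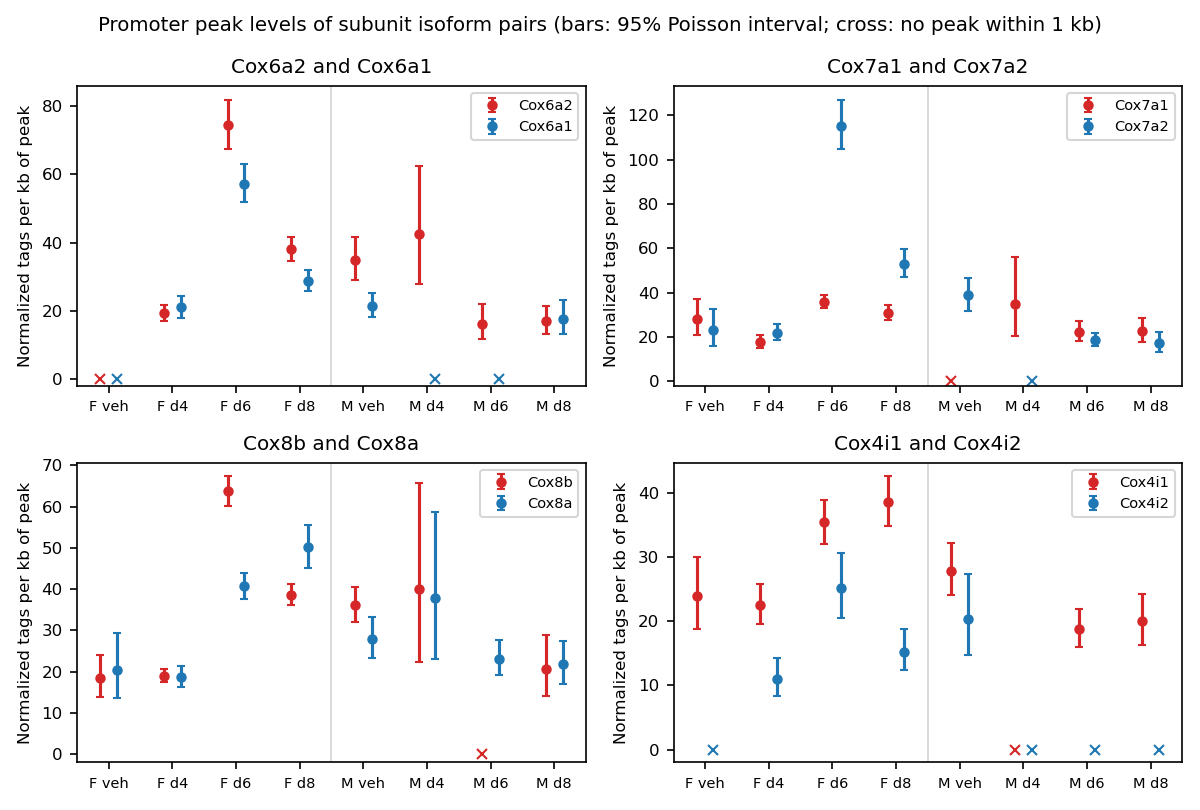
Normalized tags per kb of promoter peak (y axis) in the 8 lists (x axis) for 4 pairs of complex IV subunit genes, red the first named and blue the second. Points are the value of a list, bars its 95% Poisson interval (counting error only), and crosses at 0 stand for no peak within 1 kb. Cox7a1 has its only cross in male vehicle, and Cox4i2 has crosses in female vehicle and in the 3 later male lists.

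The remaining pairs showed a steadily marked and a sparsely marked gene. Cox4i1, the common form of subunit 4, was marked in every list but male day 4, with 26.2, 42.1, 141 and 98.7 normalized tags in the female lists and 60.4, 31.8 and 32.1 in male vehicle, day 6 and day 8. Cox4i2, its lung form, was marked in 4 lists with 11.2, 32.3 and 22.9 at female days 4, 6 and 8 and 13.9 in male vehicle. Per kb Cox4i1 was above Cox4i2 in all 4 shared lists, with separate intervals in 3. Cox6b1 was absent in female vehicle and held 28.4, 151 and 71.5 at the later female days and 36.7, 18.6, 8.11 and 9.98 in the male lists. Cox6b2, a form known from testis, was marked in 3 lists, with 28.1 at female day 6, 8.06 at female day 8 and 11.4 in male vehicle. The testis gene Cox8c (chr12:102899306-102900534) was unmarked in every list, its nearest peak between 3993 bp (male day 6) and 115726 bp (male day 8) away. Cox7b2 (chr5:71442823-71548205) and Ndufb4c (chr15:73809449-73809933) were likewise unmarked, with no peak nearer than 50601 and 6165 bp.

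Complex V, the ATP synthase, was the most evenly marked of the larger complexes: 15 of 17 genes in female vehicle, 17 in the other female lists, and 17, 14, 16 and 16 in the male lists. All 5 genes of the catalytic F1 head (Atp5a1, Atp5b, Atp5c1, Atp5d and Atp5e) were marked in all 8 lists. Of the 3 genes that encode the same c subunit of the membrane ring, Atp5g1 and Atp5g2 were marked in all lists and Atp5g3 in all but male day 4. Atp5j, coupling factor 6, had the highest median percentile (93.0), with 20.7, 101, 396 and 238 normalized tags in the female lists and 137, 69.2, 53.6 and 57.4 in the male lists. Its start lies 102 bp from that of Gabpa, the DNA-binding subunit of the ETS factor GABP. Atp5g2 and Atp5md followed, with median percentiles of 88.0 and 85.8. Atp5d held 23.3, 70.2, 2429 and 1148 normalized tags in the female lists and 85.1, 21.3, 19.8 and 21.2 in the male lists. Its day 6 and day 8 peaks in females were domains of 27876 and 25584 bp that reach well beyond the gene (chr10:80138698-80145828). Per kb these peaks held 87.1 and 44.9 normalized tags, below Sdhc, for example, with 205 and 94.8. Atp5k, subunit e, was the complex V gene marked least often, with peaks in 4 lists: 21.0, 154 and 68.0 normalized tags at female days 4, 6 and 8 and 44.0 in male vehicle.

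Against vehicle, members appeared in the later female lists and dropped out of the later male lists, as did genes in general. In females the share gained was larger, and in males the share lost was smaller, than over all genes. Of the 23 members unmarked in female vehicle, 18 (78.3%) were marked at day 4, 20 (87.0%) at day 6 and 20 (87.0%) at day 8, where the shares of all genes unmarked in vehicle were 37.5%, 59.6% and 48.9%. The unmarked include 3 members and 4643 of all genes without a promoter peak in any list. Among genes marked in at least 1 list, the members' share was 75.3% in female vehicle and 97.5%, 100% and 100% later. That of all such genes was 39.4%, then 72.0%, 92.6% and 82.9%. Of the 61 marked in female vehicle, 0 were unmarked at days 4, 6 or 8, against 3.57%, 2.11% and 2.16% of all genes. In males 1 of 4 unmarked members was gained on each day, the gene being Cox7a1, against 4.06%, 3.91% and 4.20% of all genes. Of the 80 members marked in male vehicle, 30 (37.5%) were unmarked at day 4, 11 (13.8%) at day 6 and 11 (13.8%) at day 8, against 44.8%, 44.7% and 38.5% of all genes. All 3 later lists of a sex are compared with the same vehicle list and are not independent of each other.

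The direction of these differences was not the same when the lists were cut to equal length by findPeaks score. Such a cut changes the length and also selects peaks by score, and the part of each was not tested. With each list reduced to its 17482 highest-scoring peaks, 51 members were marked in female vehicle and 47, 43 and 45 at days 4, 6 and 8, so the female difference turned from 18, 20 and 20 more members than vehicle to 4, 8 and 6 fewer. In males 55 were marked in vehicle and 51, 62 and 69 at days 4, 6 and 8, so the difference turned from 10 fewer to 7 more at day 6 and 14 more at day 8. The share of all genes did not turn in females. It was 23.1% in vehicle and 32.3%, 32.0% and 31.6% later, where that of members was 60.7%, then 56.0%, 51.2% and 53.6%. In males the share of all genes was 31.0%, 32.9%, 29.1% and 35.8%, and that of members 65.5%, 60.7%, 73.8% and 82.1%. Markers of some other cells moved with the full-length counts. Of 5 endothelial genes, 1 was marked in female vehicle and 5 in each later female list, and their summed normalized tags were 8.72 in vehicle and 180, 1314 and 472 at days 4, 6 and 8; in males 5 were marked in vehicle and 1, 4 and 1 later, with sums of 164, 13.3, 62.3 and 7.17. Of 5 macrophage and leukocyte genes, 0 were marked in female vehicle and 2, 3 and 3 later, and Adgre1 and Ptprc were unmarked in every list. In males 1 of these 5 was marked in vehicle and 0 later. Of 4 fibroblast genes 2, 3, 3 and 4 were marked in the female lists and 2, 1, 1 and 0 in the male lists. Other marker sets followed in part. Of 2 smooth muscle genes 1, 0, 2 and 2 were marked in the female lists and 1, 0, 0 and 0 in the male lists. For 4 adipocyte genes the counts were 0, 1, 2 and 2, and 0, 0, 1 and 0. For 2 satellite cell genes they were 0, 1, 1 and 2, and 0 in every male list. For 2 Schwann cell genes they were 1, 1, 2 and 1, and 1 in every male list. For 3 testis genes they were 0, 0, 2 and 0, and 1, 0, 0 and 0. The sums of 14 myofiber genes moved with the full-length counts (381, 1882, 6969 and 5558 in females, 1501, 327, 521 and 556 in males). In bulk chromatin, less mark per nucleus and fewer nuclei of a cell type cannot be told apart. The part of cell composition, depth and enrichment in the members' differences was not tested.

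Among the 18 members absent in female vehicle and present at days 4, 6 and 8, complex I gave 9 (Ndufa2, Ndufa7, Ndufa9, Ndufab1, Ndufb5, Ndufs4, Ndufs5, Ndufs6 and Ndufv1), complex III gave 2, complex IV gave 5 (Cox4i2, Cox5b, Cox6a1, Cox6a2 and Cox6b1) and complex V gave 2 (Atp5k and Atp5mpl). Ndufb5, a membrane-arm subunit, was the highest of them in complex I, with 64.1, 221 and 153 normalized tags. The 5 members present in male vehicle and absent at all 3 later days were Ndufa9, Ndufa4l2, Cox4i2, Cox6b2 and Atp5k, and all 5 were also absent in female vehicle. In male vehicle they held 15.8, 13.3, 13.9, 11.4 and 44.0 normalized tags, where the median of marked members was 45.4. For neither pattern was the share over all genes counted, so these counts and the overlap cannot be set against genes in general. In male vehicle the 50 members also marked at day 4 had a median of 53.2 normalized tags (20.9 to 137) and the 30 not marked at day 4 had 35.9 (11.4 to 83.8), ranges that overlap. For all genes the same medians were 44.6 and 18.3.

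For members marked in both lists of a pair, the ratio of their normalized tags was set beside that of all genes. It divides tag sums over peaks that were called separately and differ in length. In females the median ratio of normalized tags to vehicle on days 4, 6 and 8 was 2.46, 9.26 and 5.46 for 61 members, and 2.29, 9.28 and 5.50 for all genes marked in both. At day 4 Cox6c was the only one of the 61 below vehicle, with 27.8 normalized tags against 30.9 and overlapping Poisson intervals (23.3 to 32.9 and 24.7 to 38.2), but per kb of its peaks of 1140 and 1704 bp it was above vehicle (24.4 against 18.1). In males the median ratio was 0.518 for 50 members on day 4, 0.526 for 69 on day 6 and 0.436 for 69 on day 8, and 0.638, 0.479 and 0.471 for all genes. Ratios above 1 in males were found for 6 members at day 4, for 2 at day 6, Cox5a at 1.29 and Atp5a1 at 1.06, and for 0 at day 8. The lowest male ratios were those of Ndufs7 at day 4 (0.119), Sdhd at day 6 (0.149) and Cox8b at day 8 (0.107), where its peak had 500 bp against 2663 bp in vehicle. By complex the median female day 6 ratio ran from 7.13 in complex III to 10.2 in complex I, and the median male day 8 ratio from 0.391 in complex I to 0.564 in complex III. Divided by peak length, as tags per kb, the ratios lay nearer to 1 in 5 of the 6 comparisons, the exception being male day 6. In females the members' medians were 1.16, 4.33 and 2.12 and those of genes 1.00, 3.15 and 1.87, with median member peaks of 887 bp in vehicle and 1922, 1975 and 2543 bp later. At female day 4, 41 members were above vehicle and 20 below. In males the members' medians per kb were 0.848, 0.521 and 0.561 and those of genes 1.04, 0.577 and 0.609, with 18, 1 and 1 members above vehicle. The male day 4 list, where 20 of 50 members changed direction per kb, had median member peaks of 785 bp against 1410 bp in vehicle.

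**Figure D5:**
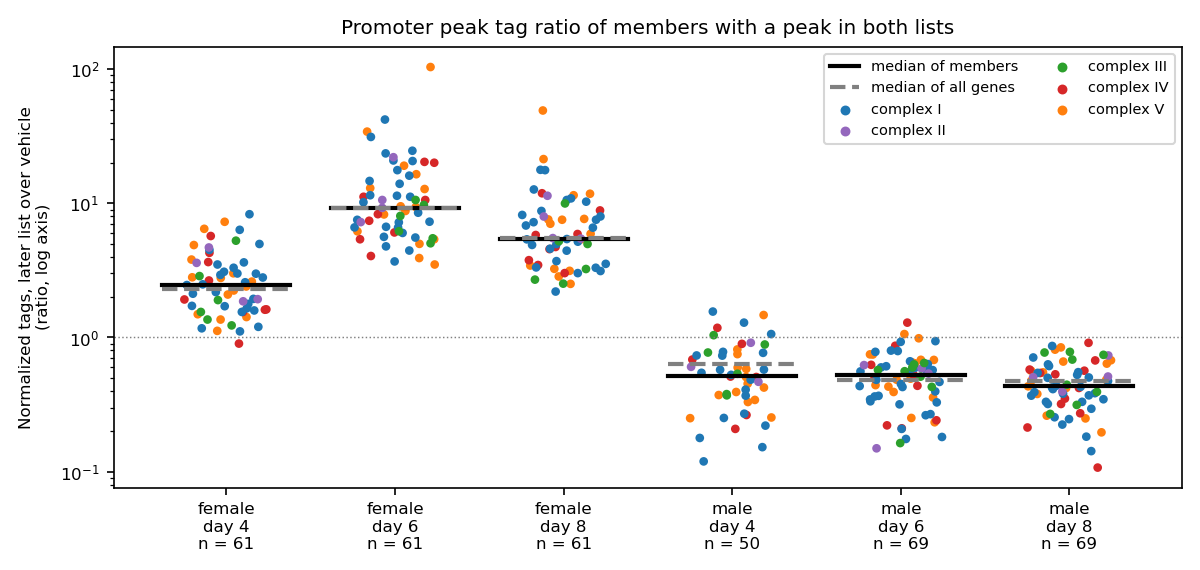
Ratio of normalized tags, summed over peaks of unequal length, in a later list to the vehicle list of the same sex (y axis, log scale) for members with a promoter peak in both, one point per gene colored by complex, with the number of genes under each column. Black bars are the members' median and gray dashed bars the median of all genes; the members' medians are 2.46, 9.26 and 5.46 in females and 0.518, 0.526 and 0.436 in males, and those of all genes 2.29, 9.28 and 5.50 and 0.638, 0.479 and 0.471.

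Other genes of mitochondrial metabolism were counted the same way. Of 41 assembly factors, which build the complexes and are no part of them, 14 (34.1%) were marked in all 8 lists, of 13 tricarboxylic acid cycle genes 4 (30.8%), of 78 mitochondrial ribosome genes 24 (30.8%), and of the pair of cytochrome c genes, Cycs and Cyct, 1, with the other unmarked in every list. The largest gap to the subunit genes was at male day 6, where 83.3% of members were marked, against 65.9% of assembly factors, 69.2% of cycle genes and 57.7% of ribosome genes. In the 3 later female lists assembly factors and cycle genes were marked in full, at 100%, and ribosome genes at 98.7%, 100% and 100%. The members' shares there were lower, at 94.0%, 96.4% and 96.4%. Cycle genes were also above members in female vehicle (76.9% against 72.6%), male day 4 (69.2% against 60.7%) and male day 8 (92.3% against 83.3%). Assembly factors were above them in male vehicle (97.6% against 95.2%). In all other comparisons the members' share was the higher. These differences between lists of genes were not tested.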

How the data were processed

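H3K27ac ChIP-Seq was done on isolated quadriceps myofibers, with 16 H3K27ac and 8 input libraries. Per the study's methods, the authors trimmed adaptors with homerTools, aligned reads with Bowtie2 (2.2.6 in the submitters' processing notes) to mm10 and called peaks in HOMER's histone style against input at a minimum fold of 2. The 8 deposited lists give 1 set of peaks per group, and the way in which a group's 2 libraries entered 1 list is not given in the sources used here. The deposited signal of a peak is its tag number scaled to 10 M (mega) tags, the deposited score is the findPeaks score, the deposited tag counts are H3K27ac and input tags per peak, 1 of which the authors scaled to the depth of the other, and the deposited ratio is the fold over input. Deposited p-values were not used.

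Depth was recovered from the step between tag values, and 100% of low values (under 40 normalized tags) were whole multiples within rounding. Starts were the 36208 curated (NM) transcripts' starts of autosomal protein-coding genes in RefSeq GRCm38.p6, the same assembly as mm10, and 0 peaks ended past a chromosome. Where a gene had several promoter peaks, that with the most normalized tags was used. Poisson intervals (95%, exact) cover counting error only. With 1 list per group no test was run, and counts stand beside those over all 20021 genes. The members and gene lists were chosen with earlier results of these data known. Named genes followed a rule: isoform pairs, complex II, the 3 highest median percentiles per other complex, members in all lists or none, and up to 3 per complex that appeared or dropped out at all 3 later days. Genes named outside it (among them Cox7a2l, Cox6c, Atp5d and the genes of extreme ratios), and the grouping by role in complexes I and V, were chosen after their values were seen. The promoter search was tested on simulated peaks and gave the same pairs as bedtools 2.31.1. Scripts used scipy 1.17.1, pandas 2.3.3, numpy 2.4.6 and matplotlib 3.10.9 under Python 3.11.15. Results for 1 member gene and 1 neighboring gene are not reported here.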

Additional observations from a re-analysis of the deposited data

Results flagged for a closer look

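The difference from vehicle in the number of marked members had opposite signs in the 2 sexes. In females the later lists held 18, 20 and 20 more marked members than vehicle at days 4, 6 and 8, and in males the counts differed by -29, -10 and -10. The share of all genes that were marked moved with the same signs. It was 30.2% in female vehicle and 55.3%, 71.1% and 63.7% later, and 56.5% in male vehicle and 32.9%, 32.9% and 36.6% later. The difference between the sexes was not tested, since each group has 1 peak list. With lists of equal length the difference was -4 in both sexes at day 4, and at days 6 and 8 the signs were opposite but reversed, with -8 and -6 in females and 7 and 14 in males. At that length the share of all genes was 23.1% in female vehicle and 32.3%, 32.0% and 31.6% later. In males it was 31.0% in vehicle and 32.9%, 29.1% and 35.8% later.

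Peaks on the mitochondrial chromosome, which no comparison above uses, were found in 3 lists: 2 in male vehicle (4.21 to 4.98 times input), 2 at male day 4 (10.7 to 12.5 times) and 1 at male day 8 (2.00 times). No other list held any. Mitochondrial DNA carries no histones, and the source of these tags was not tested.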

How the results depend on the processing

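Of 275 alternative values for 49 results, 203 kept their direction and stayed within 1.5 times the reported count or median ratio or, for percentiles and motif shares, inside the 95% interval of the reported value, 67 moved and 5 reversed. None of the values moved with a window of 500 bp, with the most upstream start only, or when a difference had to lack any overlapping peak, nor did the counts in all lists and in none when, as chosen after seeing the data, the male day 4 or the female day 6 list was left out. The member counts and differences that moved or reversed are given by setting, females before males.

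With lists of equal length, 47, 43 and 45 members were marked at female days 4, 6 and 8, 1 in all lists and 5 in none. In females 25, 23 and 22 were then lost, with differences from vehicle of -4, -8 and -6. In males 13, 20 and 18 were gained and, at days 4 and 8, 17 and 4 lost, with differences of -4, 7 and 14. With the start required inside a peak, 40 members were marked in female vehicle and 22 in all lists, 39, 41 and 40 were gained in females with differences of 39, 41 and 40, and 22 and 20 were lost at male days 6 and 8 with differences of -21 and -19. With the peak center within 1 kb, 25 were in all lists, 3, 12 and 9 were lost in females, and the female differences at days 6 and 8 were 9 and 11. At a fold over input of at least 4, 26 and 45 were marked at male days 6 and 8 and 11 in all lists, 1 was lost at female day 4, 3 and 0 were gained at male days 4 and 6, and 45 and 27 were lost at male days 6 and 8, with differences of -45 and -26. With a window of 2500 bp, 0 were gained in males on any day. Without the members that have a divergent gene, which leaves 58, 39 were marked in female vehicle, 44 at male day 6 and 24 in all lists, as fewer genes are counted.

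The median percentile of members by fold over input was 48.3, 57.5 and 78.6 in female vehicle, day 4 and day 6 and 45.0 and 37.1 in male days 4 and 6. By findPeaks score it was 46.2, 57.7 and 59.6 in female vehicle, day 6 and day 8 and 39.3 and 47.2 in male days 4 and 6. By normalized tags per kb it was 78.5, 81.4 and 77.6 in female days 4, 6 and 8 and 81.5 in male vehicle. Per kb of peak, an alternative chosen after seeing the data, the members' median ratio to vehicle was 1.16, 4.33 and 2.12 at female days 4, 6 and 8 and 0.848 at male day 4. The YY1 share over the bases before the start was 2.99%. Some settings leave a smaller number of genes or peaks, and the cause of these shifts was not tested.

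No paired analysis was possible because each peak list stands for the whole group, so the replicate numbers of the libraries cannot be followed, and for the same reason no replicate was left out in turn. The lists have no replicate error, differ in depth from 7.52 to 50.5 M tags, and show an absent peak only as not detected. Peaks near a divergent start cannot be assigned to 1 gene.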
